A study of Mus musculus with 6 samples.

Results

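Monoamine neuron genes are the enzymes, transporters and regulators that brain neurons use to make, load, recapture and break down serotonin, dopamine and noradrenaline. The 10 genes described here were found by their symbols among the 22584 genes of the count table, 1 row each, and had been selected on earlier values of these 6 libraries. Their values are therefore given as a description, with no test. Serotonin was represented by Tph2, Slc6a4 and Fev, dopamine by Th and Slc6a3, noradrenaline by Dbh and Slc6a2, and steps shared by several monoamines by Ddc, Slc18a2 and Maob.

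Bulk RNA sequencing was done on brain tissue of wild-type mice, with 3 libraries from RNA isolated by TRIzol, a phenol and guanidine reagent, as the controls, and 3 from the AllPrep DNA/RNA/Protein Mini Kit, a column kit meant to serve RNA and protein work on the same material. Both groups share the WT genotype and no treatment is named for either. The labels name no age, sex, strain, part of the brain or number of mice, so the spread between libraries may hold differences between dissections, animals or preparations. Libraries held between 36395330 and 50937858 counts. Levels are CPM, counts scaled to library size after correction by trimmed mean of M-values (TMM), and intervals are exact 95% Poisson limits, which cover counting error only. Reads carried no molecular identifiers, and in each library 64.2% or more of the counts from 1 to 20 were even numbers, so single counts are not independent molecules and the intervals are too narrow by an unknown amount.

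Monoamine neurons are few and their cell bodies sit in compact nuclei, while their fibres reach most of the brain. Serotonin cells lie in the raphe nuclei along the midline of the brainstem, dopamine cells mainly in the substantia nigra and ventral tegmental area of the midbrain, and noradrenaline cells in the locus coeruleus of the pons and in the medulla. Most of the mRNA of their marker genes stays in the cell bodies, so a tissue piece with or without such a nucleus differs strongly in these transcripts. In bulk tissue fewer cells of a type and less RNA per cell cannot be told apart.

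For each of the 10 genes the means of the methods differed by less than the SD of the method with the wider spread. Where a single library lies far above the rest of its group, it sets both the mean and the SD. For such genes this comparison cannot decide whether the methods differ. TRIzol replicate 2 held the highest level of 8 of the 10 genes, with both serotonin and dopamine genes high. AllPrep replicate 1 had high dopamine genes and low serotonin genes. The noradrenaline genes were low in all 6 libraries and highest in AllPrep replicate 2. Maob was nearly level.

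**Figure D1:**
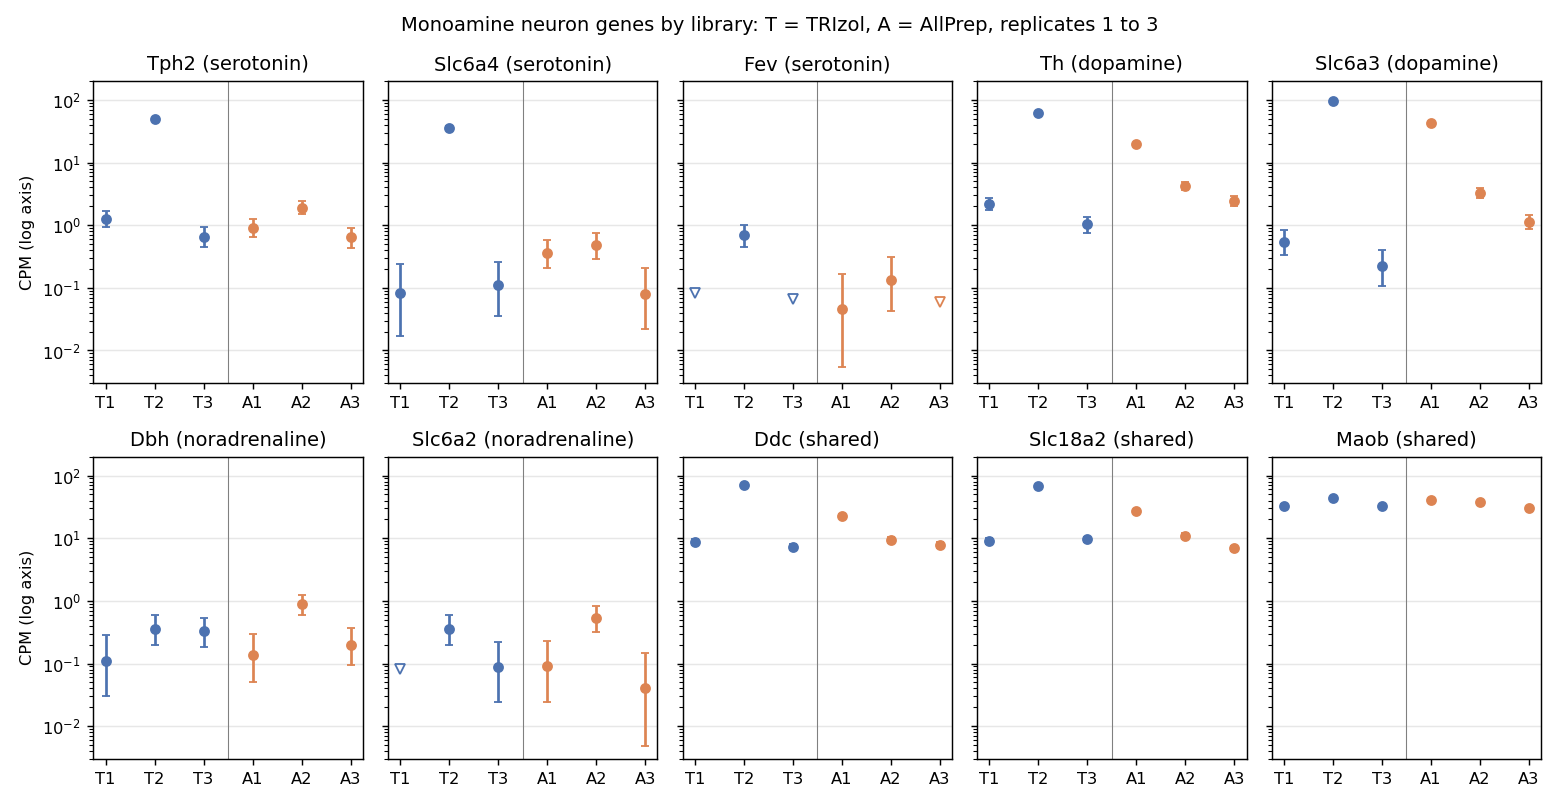
Level of each monoamine gene in each library, in CPM on a log axis, with T for TRIzol (blue), A for AllPrep (orange) and the replicate number. Points are single libraries, bars are 95% Poisson intervals, and open triangles mark 0 counts, drawn at the level of 3 counts. Slc6a3 reached 95.8 CPM in T2 and 42.9 CPM in A1 and lay at or under 3.32 CPM in the other libraries, while Tph2 was high in T2 alone.

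Promoter sequences are shown for some of the members that were high in TRIzol replicate 2, so that the letters before their starts can be read beside their levels. RefSeq's table on build GRCm38.p6, another build than the counts, held starts for 8 of the 10 members; Slc6a2 and Maob were not matched. Each line gives the 250 bases before the annotated start, 5′ to 3′ on the gene's strand, and capitals mark matches to the motifs searched.

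Tph2, chr10:115185023-115185272, minus strand: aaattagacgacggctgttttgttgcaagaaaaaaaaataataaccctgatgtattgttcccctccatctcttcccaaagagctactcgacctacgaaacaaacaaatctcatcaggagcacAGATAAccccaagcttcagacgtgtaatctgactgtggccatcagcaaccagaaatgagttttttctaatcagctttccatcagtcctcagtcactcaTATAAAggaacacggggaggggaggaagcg
Slc6a4, chr11:76998347-76998596, plus strand: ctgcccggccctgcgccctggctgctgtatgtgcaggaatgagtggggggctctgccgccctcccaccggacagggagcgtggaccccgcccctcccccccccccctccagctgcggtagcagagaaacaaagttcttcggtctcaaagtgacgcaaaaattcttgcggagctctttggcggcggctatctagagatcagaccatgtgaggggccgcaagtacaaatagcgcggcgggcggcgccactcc
Th, chr7:142899996-142900245, minus strand: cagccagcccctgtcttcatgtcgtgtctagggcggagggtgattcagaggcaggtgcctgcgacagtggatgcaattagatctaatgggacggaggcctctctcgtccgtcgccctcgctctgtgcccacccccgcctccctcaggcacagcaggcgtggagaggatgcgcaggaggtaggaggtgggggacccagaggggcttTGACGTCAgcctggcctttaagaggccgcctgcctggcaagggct
Slc6a3, chr13:73536497-73536746, plus strand: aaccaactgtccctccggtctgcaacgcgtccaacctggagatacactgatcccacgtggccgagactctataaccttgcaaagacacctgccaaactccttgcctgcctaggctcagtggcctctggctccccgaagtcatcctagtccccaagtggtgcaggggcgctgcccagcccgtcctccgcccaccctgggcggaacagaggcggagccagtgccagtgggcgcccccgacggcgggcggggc
Slc18a2, chr19:59260628-59260877, plus strand: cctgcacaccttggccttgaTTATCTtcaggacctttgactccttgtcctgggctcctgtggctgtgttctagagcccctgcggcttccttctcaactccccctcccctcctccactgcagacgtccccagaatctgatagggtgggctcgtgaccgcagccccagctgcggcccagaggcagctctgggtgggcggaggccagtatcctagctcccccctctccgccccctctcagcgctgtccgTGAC

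Motifs were searched on both strands in the 300 bases from 250 before to 50 after each start, with the base before the start as -1. The cAMP response element TGACGTCA lay at -45 to -38 of Th and across the start of Slc18a2, from -4 to 4, so that its first 4 letters end its printed line, and 1.79% of 32851 promoters of the same length held it. The TATA box TATAAA lay at -30 to -25 of Tph2 (13.6% of promoters) and the GATA motif AGATAA at -128 to -123 of Tph2 and, on the other strand, at -230 to -225 of Slc18a2 (11.2%). Slc6a4 and Slc6a3 held no match to these letters, to the NBRE AAAGGTCA (1.51%) or to the ETS motif CCGGAA (14.9%) in this window. Ddc, whose sequence is not printed, held AAAGGTCA on the other strand at -73 to -66 of its first listed start. There it shares letters with a match to TATAAA at -68 to -63, also on the other strand. The other listed start of Ddc held no match. Fev held AGATAA at -118 to -113. A match is a run of letters, and binding was not measured.

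Serotonin genes stood out in a single library. Tph2 (ENSMUSG00000006764), the brain tryptophan hydroxylase that starts serotonin synthesis, had 1.26, 49.4 and 0.657 CPM in TRIzol replicates 1 to 3 and 0.905, 1.91 and 0.640 CPM in AllPrep replicates 1 to 3. TRIzol replicate 2, with 1937 counts, was 25.9-fold above the next library, AllPrep replicate 2 with 72 counts. Below the top library, AllPrep replicate 2 (interval 1.5 to 2.41 CPM) and TRIzol replicate 1 (0.921 to 1.68 CPM) had overlapping intervals, and from there down each library overlapped the next. Slc6a4 (ENSMUSG00000020838), the plasma membrane transporter that takes serotonin back up, had 0.0821, 36.1 and 0.11 CPM in TRIzol and 0.362, 0.478 and 0.0800 CPM in AllPrep. Its level in TRIzol replicate 2 rested on 1416 counts and was 75.6-fold above the next library, while the other 5 libraries had 3 to 18 counts. Fev (ENSMUSG00000055197), the transcription factor that sets serotonin neuron identity, had 27 counts in TRIzol replicate 2, or 0.689 CPM with an interval of 0.454 to 1.00. It had 2 and 5 counts in AllPrep replicates 1 and 2 and 0 in the other 3 libraries, where the limit set for a count of 0, which is 3 counts, is 0.0821, 0.0657 and 0.0600 CPM. All 3 serotonin genes had their highest value in the same TRIzol library and their next in AllPrep replicate 2, at levels far apart. That next place was within counting error for each. The intervals of AllPrep replicates 2 and 1 overlapped for Slc6a4 (0.283 to 0.755 and 0.207 to 0.588 CPM) and for Fev (0.0431 to 0.310 and 0.00548 to 0.163 CPM).

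Dopamine genes were high in that library and in 1 AllPrep library. Th (ENSMUSG00000000214), tyrosine hydroxylase, the first enzyme of dopamine and noradrenaline synthesis, had 2.22, 61.0 and 1.03 CPM in TRIzol and 19.4, 4.22 and 2.42 CPM in AllPrep. Slc6a3 (ENSMUSG00000021609), the dopamine transporter, had 0.547, 95.8 and 0.219 CPM in TRIzol and 42.9, 3.32 and 1.14 CPM in AllPrep. Its counts ran from 10 in TRIzol replicate 3 to 3753 in TRIzol replicate 2, a 437-fold range in CPM, beside 59.2-fold for Th, 77.2-fold for Tph2 and 452-fold for Slc6a4, whose lowest library had 4 counts. For Slc6a3, TRIzol replicate 2 was 2.23-fold above AllPrep replicate 1, which was 12.9-fold above AllPrep replicate 2. The order of the libraries was the same for both dopamine genes, and for Slc6a3 no neighbours in that order except TRIzol replicates 1 and 3 (intervals 0.334 to 0.845 and 0.105 to 0.403 CPM) overlapped. For Th the neighbours with overlapping intervals were AllPrep replicate 3 and TRIzol replicate 1.

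Serotonin and dopamine genes did not keep 1 ratio across libraries. Slc6a3 had 47.4 counts for each Tph2 count in AllPrep replicate 1 and 1.94 in TRIzol replicate 2. In the libraries with little of both, the ratio was 0.435, 0.333, 1.74 and 1.78 in TRIzol replicates 1 and 3 and AllPrep replicates 2 and 3. Slc6a3 exceeded Th where both were high, with 1.57 Slc6a3 counts per Th count in TRIzol replicate 2 and 2.21 in AllPrep replicate 1. Where both were low the ratio turned, to 0.247, 0.213, 0.786 and 0.471 in TRIzol replicates 1 and 3 and AllPrep replicates 2 and 3. Th is also made by noradrenaline cells and by neurons of the olfactory bulb and hypothalamus, and their part in this ratio was not tested.

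Noradrenaline genes were at the edge of detection. Dbh (ENSMUSG00000000889), dopamine beta-hydroxylase, which turns dopamine into noradrenaline, had 4, 14 and 15 counts in TRIzol and 6, 33 and 10 counts in AllPrep. These were 0.109, 0.357 and 0.329 CPM and 0.136, 0.876 and 0.200 CPM. AllPrep replicate 2 was highest, 2.45-fold above TRIzol replicate 2, with an interval of 0.603 to 1.23 CPM against 0.195 to 0.60 CPM. These limits nearly touch, and since the intervals are too narrow, the order of these libraries is not settled. The libraries below AllPrep replicate 2 overlapped one another. Slc6a2 (ENSMUSG00000055368), the noradrenaline transporter, had 0, 14 and 4 counts in TRIzol and 4, 20 and 2 counts in AllPrep. The limit of 3 counts for the 0 in TRIzol replicate 1 is 0.0821 CPM. Both genes had their highest value in AllPrep replicate 2 (0.876 and 0.531 CPM) and their next in TRIzol replicate 2, and for Slc6a2 those 2 intervals overlapped. The level of Dbh in AllPrep replicate 1, the library second in dopamine genes, was 0.155 of that in AllPrep replicate 2.

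Genes shared by the monoamines had a base level in every library and were highest in the same 2 libraries. Ddc (ENSMUSG00000020182), the decarboxylase that makes dopamine and serotonin from their precursors, had 8.75, 71.5 and 7.17 CPM in TRIzol and 23.1, 9.37 and 7.84 CPM in AllPrep. Slc18a2 (ENSMUSG00000025094), the vesicular transporter that loads all monoamines, histamine included, had 9.05, 69.0 and 9.64 CPM in TRIzol and 26.9, 10.8 and 6.88 CPM in AllPrep. TRIzol replicate 2 was 8.17-fold and 7.16-fold above the median of the other 5 libraries for Ddc and Slc18a2. Their ratio moved little, from 0.743 to 1.14 Ddc counts per Slc18a2 count over the 6 libraries. Maob (ENSMUSG00000040147), a mitochondrial oxidase of monoamines found in astrocytes as well as in serotonin and histamine neurons, had 33.0, 43.5 and 32.1 CPM in TRIzol and 40.9, 37.9 and 29.9 CPM in AllPrep. Its range was 1.46-fold, with the same 2 libraries on top, but within counting error. The interval of AllPrep replicate 1 (39.0 to 42.8 CPM) overlapped those of TRIzol replicate 2 (41.5 to 45.6 CPM) and AllPrep replicate 2 (36.0 to 39.9 CPM). The 10 astrocyte markers, all expressed, summed to 4351 to 4964 CPM in TRIzol and 5068 to 5486 CPM in AllPrep. Slc1a2, the most abundant, had 2167 to 2579 CPM in TRIzol and 2828 to 3221 CPM in AllPrep. The median log2 fold change of the list was -0.07, with 4 genes positive and 6 negative. The part of these markers in the level of Maob was not tested.

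Per length, the order of the genes differed between libraries. Levels were divided by the summed exon length of each gene in GENCODE vM21. In TRIzol replicate 2, Slc6a3 (27.7 CPM per kb) and Th (25.8) led, followed by Tph2 (17.2), Ddc (16.0), Maob (15.6), Slc18a2 (13.2) and Slc6a4 (7.98). Fev, Dbh and Slc6a2 were lowest, at 0.426, 0.133 and 0.0568 CPM per kb. In AllPrep replicate 1, Maob (14.7 CPM per kb) was above Slc6a3 (12.4), Th (8.21), Ddc (5.17) and Slc18a2 (5.15), and Tph2 was at 0.314. In the remaining 4 libraries Maob led with 10.7 to 13.6 CPM per kb and none of the other members passed 2.10.

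The means of the extraction methods differed by less than the wider SD, and for most members a single library set much of both. Mean levels were 17.1 ± 28.0 CPM in TRIzol and 1.15 ± 0.671 CPM in AllPrep for Tph2 (SD, n = 3), and 32.2 ± 55.1 and 15.8 ± 23.5 CPM for Slc6a3 (SD, n = 3). Filtering for low counts left 8 members in the edgeR fit, all but Fev and Slc6a2. Their log2 fold changes, AllPrep over TRIzol, were -3.92 (SE 1.55) for Tph2, -5.35 (SE 2.09) for Slc6a4, -1.30 (SE 1.40) for Th, -1.03 (SE 1.87) for Slc6a3, -1.12 (SE 0.88) for Ddc and -0.98 (SE 0.85) for Slc18a2. Dbh had 0.54 (SE 0.77) and Maob 0.00 (SE 0.16). Of the 8, 0 passed an adjusted p of 0.05, against 3.80% of all 16325 genes tested, and at an unadjusted p under 0.05 there were 2, Tph2 and Slc6a4, against 25.8% of all genes. In 0 of the 8 did the methods separate without overlap, against 33.1% of all genes. Since the members had been selected with this contrast known, nothing is read from these counts.

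The sign of most differences rested on TRIzol replicate 2. Without it the log2 fold change of Slc6a3 was 5.39, that of Th 2.43, that of Slc6a4 1.59, and Ddc, Slc18a2 and Tph2 had 0.75, 0.66 and 0.26. Without AllPrep replicate 1, Slc6a3 had -3.88, Th -2.69, Ddc -1.76 and Slc18a2 -1.73. Without both of these libraries, a setting chosen after the data were seen, Slc6a3 had 2.55 (SE 0.71), Th 1.04 (SE 0.47), Tph2 0.41 (SE 0.63), Ddc 0.11 (SE 0.18) and Slc18a2 -0.08 (SE 0.24). Dbh turned negative (-0.66) without AllPrep replicate 2. Over the 6 fits that each left out 1 library, all 8 tested members had values of either sign.

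**Figure D2:**
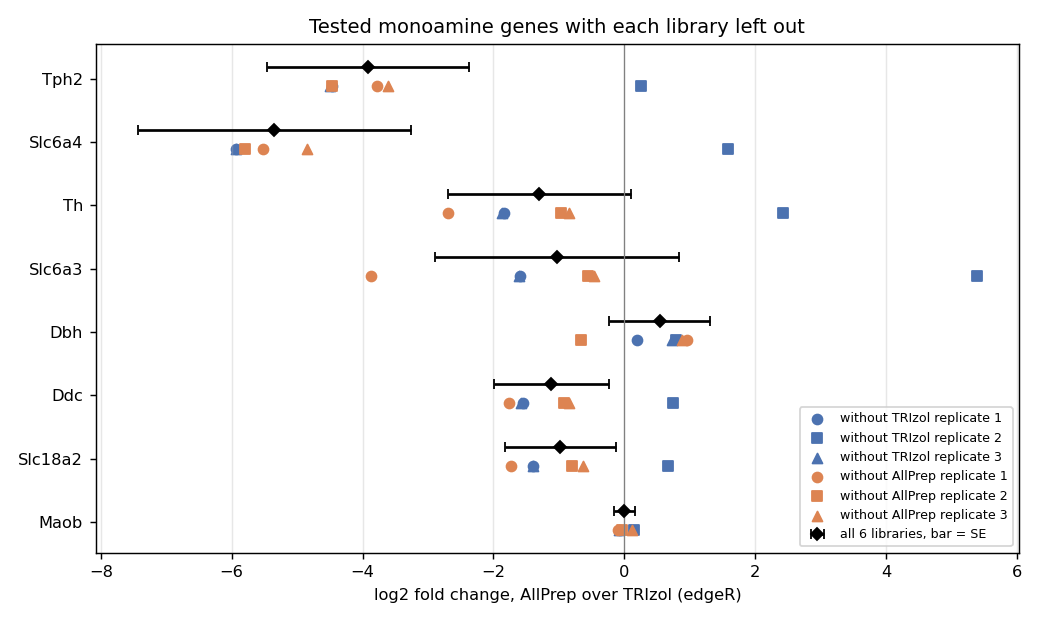
Log2 fold change, AllPrep over TRIzol, of the 8 tested monoamine genes. Black diamonds are the fit to all 6 libraries with the SE as bar, and coloured symbols the fits with 1 library left out; leaving out TRIzol replicate 2 (blue square) moved Slc6a3 from -1.03 to 5.39 and Tph2 from -3.92 to 0.26.

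TRIzol replicate 2 was the highest library for 7 of the 8 tested members, against 18.3% of all tested genes, and in 5 of the 8 AllPrep replicate 1 came second, against 3.42%. At least 4 times the median of the other 5 libraries was reached there by 6 of the 8 members and by 0.263% of all tested genes, or 43 genes. That number is not high among the libraries, since 21 to 85 genes stood as far above the others in each of the remaining 5. In AllPrep replicate 1 the genes past this limit included Th and Slc6a3, and in AllPrep replicate 2 Slc6a4 and Dbh, on 18 and 33 counts. These limits were set after the values were seen and are given as a description.

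Most other marker genes of dopamine neurons had the order of libraries seen for Slc6a3 at the top. The list of 12 transcription factors and markers of these cells had 10 tested genes, of which 0 passed between methods with 0 at an unadjusted p under 0.05 (25.8% of all genes) and 0 in DESeq2 (13.4% of the 15683 genes to which it gave an adjusted p). Its median log2 fold change was -0.74, against -0.01 over all genes tested. Library by library, 7 of the 10 were highest in TRIzol replicate 2 with AllPrep replicate 1 next (3.42% of all genes), and 6 reached 4 times the median of the other libraries in the former (0.263%). Chrna6, a nicotinic receptor subunit of dopamine neurons, had 1.15, 38.8 and 1.36 CPM in TRIzol and 7.56, 1.67 and 0.440 CPM in AllPrep. En1, a homeobox factor of midbrain and anterior hindbrain neurons, had 0.109, 4.29 and 0 CPM and 1.52, 0.319 and 0.0400 CPM in the same order. Both were chosen after their values were seen. Of the 2 most abundant genes of the list, Aldh1a1, an aldehyde dehydrogenase also made by other cells, was highest in TRIzol replicate 2 with TRIzol replicate 3 next, at 54.2, 217 and 113 CPM in TRIzol and 93.5, 71.7 and 33.7 CPM in AllPrep. Nr4a2, a nuclear receptor also made in cortex, was lowest in TRIzol replicate 2, with 36.6 CPM against 53.4 to 80.5 CPM elsewhere. Pitx3 and Foxa2, factors that dopamine neurons need, were not tested for low counts and were highest in TRIzol replicate 2 at 0.434 and 1.38 CPM.

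The serotonin and noradrenaline lists held genes of several patterns. Of the 6 genes of the serotonin list 0 passed in edgeR, 1 did at an unadjusted p under 0.05 and in DESeq2 (Gata3), against 25.8% and 13.4% of all genes, and the median log2 fold change was -0.23. Gata3 and Lmx1b, factors that serotonin and some other neurons need, were highest in TRIzol replicate 2, at 6.36 and 3.17 CPM. Next came TRIzol replicate 1 for Gata3 (2.24 CPM), which was lower in every AllPrep library, and AllPrep replicate 1 for Lmx1b (1.45 CPM). Gata2, the other transcription factor of the list, was nearly level, at 3.15 to 4.39 CPM. The most abundant genes, the receptors Htr1a and Htr1b, are also made by cortical and striatal neurons, and had 29.7 ± 5.51 against 24.8 ± 4.19 CPM and 14.0 ± 4.09 against 16.7 ± 3.18 CPM in TRIzol and AllPrep (SD, n = 3). In the noradrenaline list, Phox2a, a factor that these neurons need, was at 0.0905 CPM in AllPrep replicate 1 and had 0 counts in the other 5 libraries. Of its 2 tested genes 0 passed in edgeR, and 1 did at an unadjusted p under 0.05 and in DESeq2, Gal, a neuropeptide of the locus coeruleus and of the hypothalamus. Gal had 0.164, 0.230 and 0.635 CPM in TRIzol and 4.16, 1.65 and 1.46 CPM in AllPrep, a log2 fold change of 2.77 (SE 0.60, adjusted p = 0.051 in edgeR). Of 9 tested hypothalamus markers 3 rose in AllPrep (Hdc, Sim1 and Oxt), against 2.52% of all genes, and 6 did not pass in edgeR. At an unadjusted p under 0.05 there were 7, against 25.8% of all genes, and the median log2 fold change was 2.40. It was positive for 8 of them and negative for 1, Pomc (-0.14). The list summed to 21.2 to 47.8 CPM in AllPrep and 5.65 to 7.47 CPM in TRIzol, and its part in the level of Gal was not tested. Tfap2b, a factor of noradrenaline and other neurons, had 5.76 ± 4.07 against 2.62 ± 0.663 CPM in TRIzol and AllPrep (SD, n = 3).

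**Figure D3:**
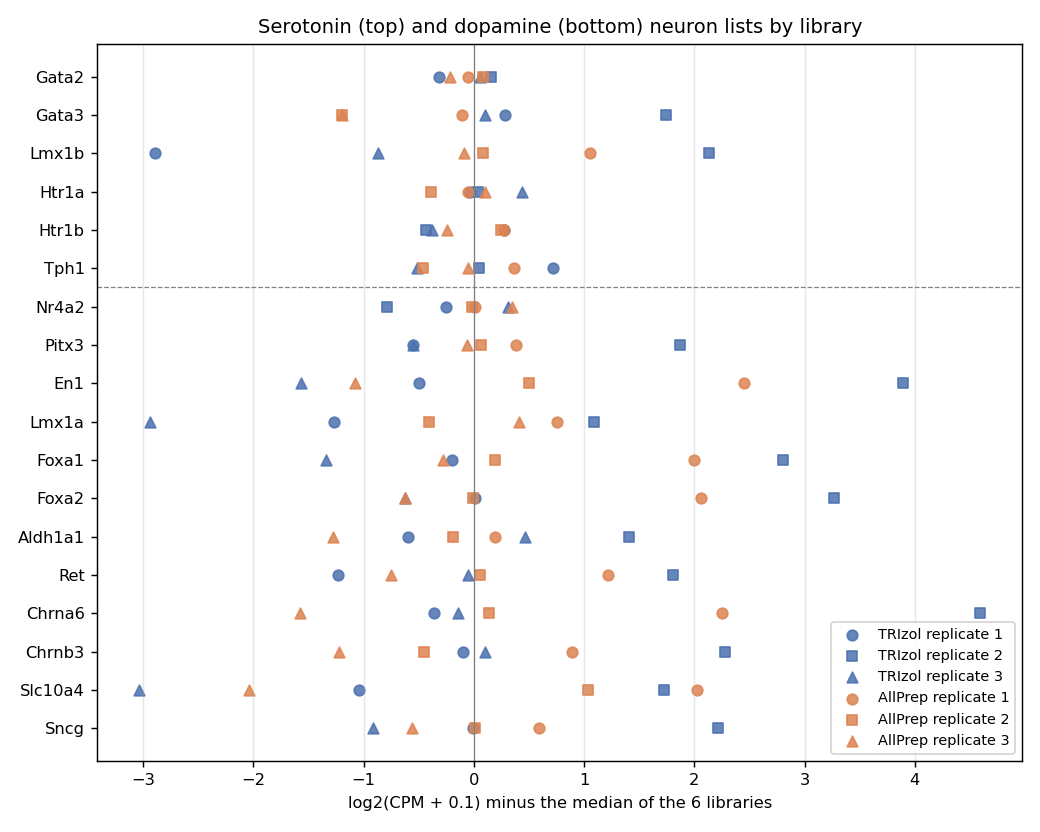
Serotonin neuron list (above the dashed line) and dopamine neuron list (below), each gene as log2(CPM + 0.1) minus its median over the 6 libraries; blue is TRIzol, orange AllPrep, and circle, square and triangle are replicates 1, 2 and 3. The blue squares and orange circles lie farthest to the right for Chrna6, En1, Foxa1 and Foxa2, and not for Nr4a2 or Htr1a.

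The genes nearest to 3 members in their course over the 6 libraries were taken from all tested genes with a mean of at least 1 CPM, members left out, by the root mean square difference of log2(CPM + 0.1) after centring. For Tph2 they were Cnpy1 (0.74), Pax7 (0.89), Slc6a5 (1.10), Pax5 (1.15) and En2 (1.17). For Slc6a3 they included En1 (1.20), Slc10a4 (1.56), Chrna6 (1.56) and Pax5 (1.87), of which En1, Slc10a4 and Chrna6 were on the dopamine list. Unlike Slc6a3, Slc10a4 was highest in AllPrep replicate 1 (14.9 CPM), followed by TRIzol replicate 2 (12.1 CPM) and AllPrep replicate 2 (7.49 CPM). For Dbh, at its low counts, they were Gpr4 (0.46), H4c14 (0.46), Npsr1 (0.47), Pstpip1 (0.47) and Dennd1c (0.51). Cnpy1 had 5.82 CPM in TRIzol replicate 2 and 0.504 CPM or less elsewhere. These differences compare shapes over 6 libraries and carry no test.

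Markers of neighbouring regions are given beside the members as a description. Neuron, glia and vessel markers were expressed in every library, for example Snap25 at 2163 to 3548 CPM. Hox genes, expressed in the medulla and spinal cord, had at most 4 counts in any library for the 5 genes found, with list sums of 0 to 0.159 CPM, and the other 11 were not analysed here. Gabra6, which marks cerebellar granule cells, was at 0 in 3 libraries and at 0.0531 CPM or less in the rest. The other cerebellum markers, most of which other regions make too, were detected, and the list summed to 43.0, 39.7 and 114 CPM in TRIzol and 89.7, 82.1 and 47.3 CPM in AllPrep, with Zic1 the highest of them in each library at 14.3 to 79.2 CPM. Slc6a5, the glycine transporter of brainstem inhibitory neurons, had 0.219, 5.31 and 0.745 CPM in TRIzol and 0.543, 0.372 and 0.0800 CPM in AllPrep. It is 1 of the genes nearest to Tph2, and of the 7 genes of the brainstem glycine and motor neuron list only Slc6a5 and Glra1 were highest in TRIzol replicate 2. Chat, Slc5a7, Slc18a3 and Isl1 were highest in AllPrep replicate 1 and Prph in TRIzol replicate 3. The list summed to 13.7, 27.9 and 10.5 CPM in TRIzol and 55.6, 41.4 and 9.14 CPM in AllPrep. In AllPrep replicates 1 and 2 the highest gene of the list was Slc5a7, at 28.2 and 23.2 CPM, with Slc6a5 at 0.543 and 0.372 CPM. The sum of the striatal markers was also highest in these libraries, at 1051 and 1232 CPM. The sum of the brainstem list is therefore not read as brainstem content. The part of tissue content in the members' levels was not tested.

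Enzymes of tetrahydrobiopterin, the cofactor that Tph2 and Th require, did not pass between methods. Of 7 tested genes 0 passed in edgeR, 2 did at an unadjusted p under 0.05 (Spr and Qdpr) and 1 in DESeq2 (Qdpr), near the 25.8% and 13.4% over all genes, with a median log2 fold change of -0.21. Qdpr, which regenerates the cofactor, had 113 ± 16.0 and 75.5 ± 14.9 CPM in TRIzol and AllPrep (SD, n = 3; adjusted p = 0.083 in edgeR), and Pts, a synthesis enzyme, 23.7 ± 2.06 and 20.9 ± 1.07 CPM (SD, n = 3; adjusted p = 0.27 in edgeR). Gch1, the rate-limiting enzyme of its synthesis, had 2.41, 8.91 and 2.83 CPM in TRIzol and 3.91, 2.39 and 2.28 CPM in AllPrep, with the same 2 libraries on top as for the dopamine genes.

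Among genes of breakdown and low-affinity uptake 1 transporter rose. Slc29a4, a low-affinity monoamine transporter of the plasma membrane, had 6.48, 9.78 and 10.04 CPM in TRIzol and 19.4, 16.4 and 24.1 CPM in AllPrep, with no overlap. It rose by a log2 fold change of 1.19 (SE 0.20, adjusted p = 0.033 in edgeR) and was higher in 3 of 3 AllPrep libraries. It was the 1 gene called among 45 tested genes of all 7 pathway lists, against 2.52% of all genes called higher and 1.28% called lower. It did not pass in any of the 6 fits that left out 1 library. Slc29a4 is also made by the choroid plexus, whose 7 listed markers all rose in AllPrep, with sums of 601 to 1203 CPM against 13.9 to 19.0 CPM, and their part in the level of Slc29a4 was not tested. Of the other 6 tested genes of this list 0 passed in edgeR, at an unadjusted p under 0.05 or in DESeq2. Aldh2, an aldehyde dehydrogenase that acts in monoamine breakdown, had 79.0 ± 6.67 against 78.4 ± 3.69 CPM in TRIzol and AllPrep (SD, n = 3).

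Dopamine receptor genes had another order of libraries than Th and Slc6a3. Of the 4 tested 0 passed in edgeR, at an unadjusted p under 0.05 or in DESeq2, with a median log2 fold change of 0.36. Drd1, the receptor of direct-pathway striatal neurons, had 42.0, 21.7 and 7.998 CPM in TRIzol and 58.7, 57.4 and 23.9 CPM in AllPrep. Drd2, the receptor of indirect-pathway neurons and of dopamine cells themselves, had 21.6, 15.2 and 3.33 CPM and 29.6, 35.2 and 7.18 CPM in the same order. For both, TRIzol replicate 2 lay between the other TRIzol libraries. The 8 striatal markers summed to 768, 388 and 179 CPM in TRIzol and 1051, 1232 and 407 CPM in AllPrep, the same order of libraries within TRIzol as Drd1 and Drd2, and their part was not tested. Of 9 adrenergic receptor genes 0 passed in edgeR, 4 did at an unadjusted p under 0.05 and 2 in DESeq2 (Adra1b and Adra2a), against 25.8% and 13.4% of all genes, with a median log2 fold change of 0.28. Adra1b had 24.5 ± 3.63 against 16.3 ± 3.85 CPM in TRIzol and AllPrep (SD, n = 3; adjusted p = 0.11 in edgeR), and Adra2a, which also acts as the autoreceptor of noradrenaline neurons, 16.2 ± 2.23 against 26.7 ± 5.37 CPM (SD, n = 3; adjusted p = 0.054 in edgeR).

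**Figure D4:**
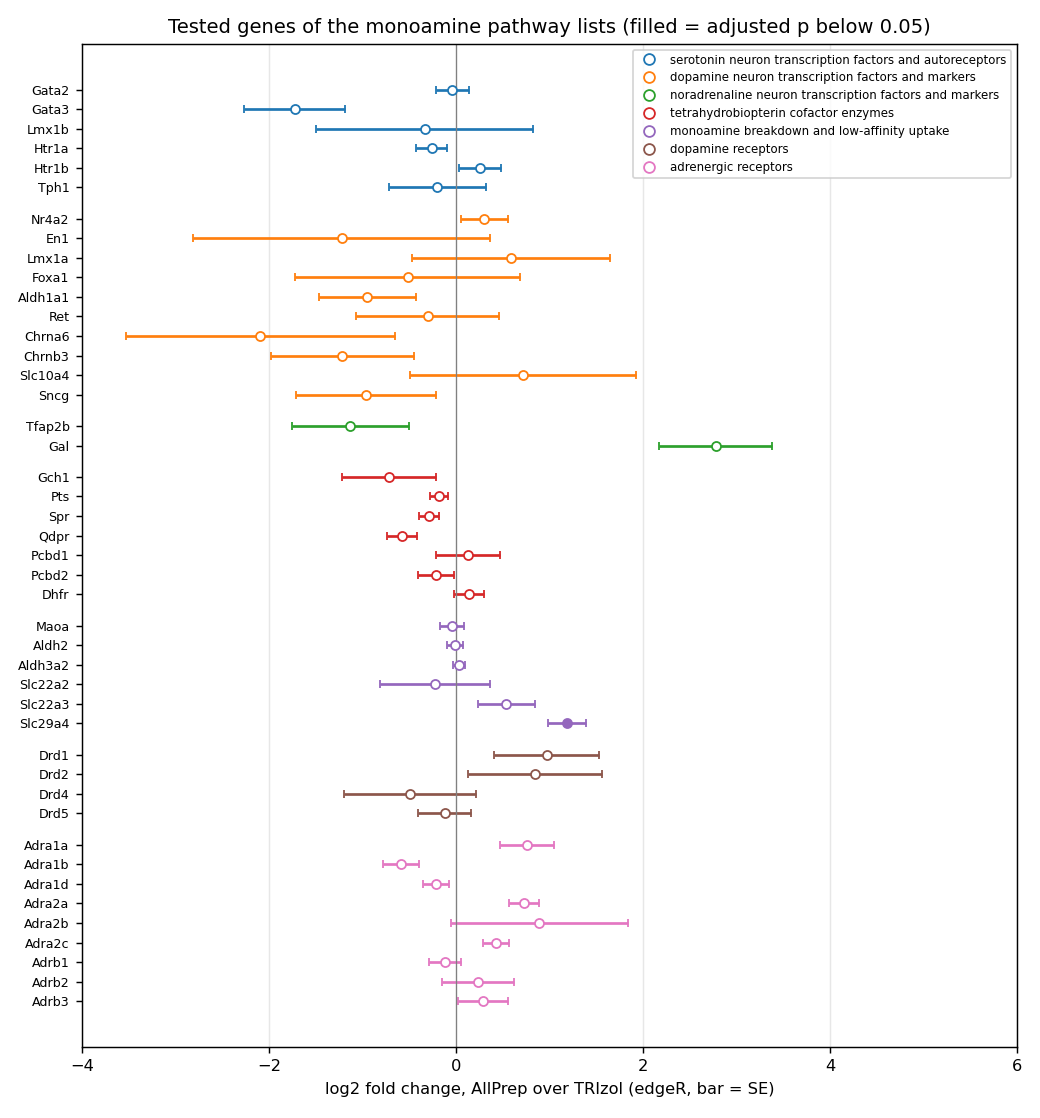
Log2 fold change, AllPrep over TRIzol, of tested genes of the pathway lists, with the SE as bar; colours mark the lists and the filled symbol the gene with an adjusted p below 0.05. Slc29a4 (1.19) is the filled symbol, and bars are widest for En1, Chrna6 and other genes that differ between libraries of 1 method.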

How the data were processed

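RNA from brain tissue was amplified by T7 in vitro transcription and sequenced as paired reads, per the labels' protocols. The authors deposited raw counts per gene. The submitters' processing notes list STAR 2.7.9a and featureCounts on GRCm39, beside FastQC 0.11.9, limma 3.60.6 and cutadapt, and the labels do not state the counting settings. The table's 22692 rows held 22584 Ensembl IDs, and 108 repeated rows were removed. Libraries of 1 method differed by more than counting noise (chi-square over its degrees of freedom at least 14.3), and each was counted as its own library. No label ties a replicate to its own animal, and p-values then reflect just how these libraries vary, which may be technical.

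Genes were tested with edgeR 4.0.16 (R 4.3.3; filterByExpr, TMM, quasi-likelihood F-test, two-sided, Benjamini-Hochberg adjusted p below 0.05 over all 16325 genes tested), with no replicate block. The SE is the log2 fold change divided by the square root of F. The step was tested on simulated data. Members and lists were chosen with earlier results of these data known. Named were all members, in each pathway list the genes past the threshold and the 2 most abundant, and the 5 genes nearest in profile to Tph2, Slc6a3 and Dbh, unnamed gene models left out; other genes were named after their values were seen, and some genes that the rule names are not reported here or drawn. Of 54 pathway genes 53 were matched by symbol and 45 tested; Hand2 was not analysed here. Alternatives were DESeq2 1.42.0, library size alone, 2 other filters, halved counts, the replicate block and left-out libraries.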

Additional observations from a re-analysis of the deposited data

How the results depend on the processing

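Over all genes 621 passed. DESeq2 called 2095 and the replicate block 236, and leaving out 1 library gave 2 to 205; without TRIzol replicate 2 and AllPrep replicate 1 together it was 0 in edgeR, with 2732 at an unadjusted p under 0.05. Scaling by library size alone, 343 genes were called higher and 305 lower, against 412 and 209. Of the pathway genes 1 passed, Slc29a4. DESeq2 called 6 (Adra1b, Adra2a, Gal, Gata3, Qdpr and Slc29a4) and the fit with no filter 3 (Adra2a, Gal and Slc29a4). Leaving out 1 library gave 0 to 1, the 1 being Tfap2b without TRIzol replicate 3, and leaving out both named libraries gave 0 in edgeR, with 7 at an unadjusted p under 0.05. Same-numbered libraries deviated together with correlations of -0.05, 0.01 and 0.16, against -0.17 to 0.20 for libraries of different number. No pairing by number was seen, but with so few libraries these values cannot exclude one. With the replicate block Slc6a3 had a log2 fold change of 1.12 and Th 0.30, against -1.03 and -1.30. Slc29a4 was again the 1 pathway gene called. Under the other settings that did not leave out a library, the members kept their sign, except Maob, whose value of 0.00 ran from -0.03 to 0.01. Slc6a4 and Dbh had no value with halved counts or when 1 CPM was required in 3 libraries. Depth limits Fev, Slc6a2 and Dbh, with at most 33 counts in a library.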
